A study of Mus musculus with 22 samples.

Results

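BAT of CPEB2-KO mice given PRDM16 by virus was compared with BAT of WT mice given GFP by virus, to ask which transcripts still differed from the control WT state once PRDM16 had been supplied. The members were defined by their labels, with earlier results of these data known. They were 3 KO + AAV-PRDM16 libraries (mice 59, 65 and 76) and 3 WT + AAV-GFP libraries (mice 56, 65 and 89), 6 of the 22 libraries of the series. Mouse 65 of each group is a different animal. Both genotypes were male C57BL/6 mice from crosses of heterozygotes, with a *Cpeb2* deletion in every tissue of the KO. At 16 weeks each mouse received 20000000000 vector genomes in 30 µl, 10 µl at each site, into the interscapular BAT, and its BAT was taken after 9 more weeks. The labels put this at an age of 25 weeks, and the study's text slightly later. The AAV carried the coding region of PRDM16 with a flag tag, or GFP. All animals were on a 12-hour light cycle and a chow with 9% fat, and all 12 mice of the AAV cohort had been injected, so no uninjected tissue enters the comparison. The other 6 mice of that cohort, 3 KO + AAV-GFP and 3 WT + AAV-PRDM16, are given beside the results. The 4 groups are written KO-PRDM16, WT-GFP, KO-GFP and WT-PRDM16 below. The 10 untreated libraries of the series were fitted apart as another experiment, and their results are not described here.

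CPEB2 binds elements rich in uridine in the 3′ end of mRNAs and regulates their translation. PRDM16 is a zinc finger coregulator that, with partners such as EBF2, C/EBPβ and PPARγ, drives the brown fat program and represses muscle and white fat genes. It is also known to act at interferon-response genes of adipocytes. Brown adipocytes burn fat in mitochondria packed with respiratory chain complexes, and the uncoupling protein UCP1 releases the energy as heat.

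The group difference here combines 2 changes, the loss of CPEB2 and the added PRDM16, and the effect of either on its own cannot be told apart within these 6 libraries. The libraries held from 61636889 to 143005309 counts, and between 29.68% and 36.88% of these fell on the mitochondrial genome. Of 55487 genes, 18899 passed a filter on low counts. Levels are given as CPM, in the order of the mouse numbers. These are counts scaled to the library's total over the genes tested, times its TMM scaling factor. A log2 fold change (log2FC) is positive where KO-PRDM16 was higher, and comes with its standard error (SE). Differences were tested by edgeR's quasi-likelihood test, with the false discovery rate (FDR) computed over all genes tested. Each library is a mouse of its own. All 6 carried at least 1184 CPM of the brown fat marker *Ucp1*.

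*Cpeb2* was the gene with the smallest p of all. The gene (ENSMUSG00000039782) lies on the plus strand of GRCm38 chromosome 5 from 43233170 to 43289724. Its level was 12.8, 14.0 and 10.5 CPM in WT-GFP and 5.21, 4.33 and 4.91 CPM in KO-PRDM16. The KO libraries lay far below every WT library and kept a residual count, as KO-GFP did (5.42, 5.51 and 5.55 CPM). The log2FC was -1.37 (SE 0.14, FDR = 0.0088 by edgeR's test, n = 3 and 3). The call was lost, at a log2FC of -1.36 (FDR = 0.127), when the 6 libraries alone were fitted, with scaling to totals without mitochondrial genes (FDR = 0.115), and without KO-PRDM16 mouse 65 (FDR = 0.079) or mouse 76 (FDR = 0.082). The paralogs *Cpeb1*, *Cpeb3* and *Cpeb4* had log2FC of -0.18, 0.22 and 0.26, and none of the 3 passed an unadjusted p of 0.05.

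*Prdm16* (ENSMUSG00000039410, minus strand of chromosome 4 from 154316125 to 154636873) was the supplied gene. It had 23.9, 40.2 and 35.8 CPM in WT-GFP and 69.2, 128 and 73.6 CPM in KO-PRDM16, so the groups did not overlap. The log2FC was 1.44 (SE 0.34, unadjusted p = 0.0012, FDR = 0.39 by edgeR's test). Counts of the vector's coding region and of the mouse gene cannot be told apart. The KO-GFP libraries, at 31.7, 34.5 and 31.7 CPM, lay within the range of WT-GFP. In WT-PRDM16 the level was 122, 119 and 45.9 CPM, and mouse 80 thus carried less *Prdm16* mRNA than any KO-PRDM16 mouse.

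At an FDR of 0.05, *Cpeb2* was the 1 gene called lower (0.00529% of genes tested) and 0 genes were called higher (0.0%). At an unadjusted p of 0.05, 836 genes were lower (4.42%) and 662 higher (3.5%). At the thresholds of the study, a 2-fold change and an FDR of 0.5, 114 genes were lower (0.603%) and 56 higher (0.296%), an FDR that allows a large share of false calls. In 1340 genes all KO-PRDM16 libraries lay below all WT-GFP libraries (7.09%), and in 1163 genes above (6.15%). The counts at the study's thresholds were not stable. Without WT-GFP mouse 89 they were 1 lower and 0 higher, and without mouse 56 they were 416 and 169. The other tools gave other sizes of call list as well: DESeq2 called 83 genes lower and 74 higher at an FDR of 0.05, and limma-voom 1 and 0. The results are therefore described by gene group, each beside the percentages above.

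**Figure D1:**
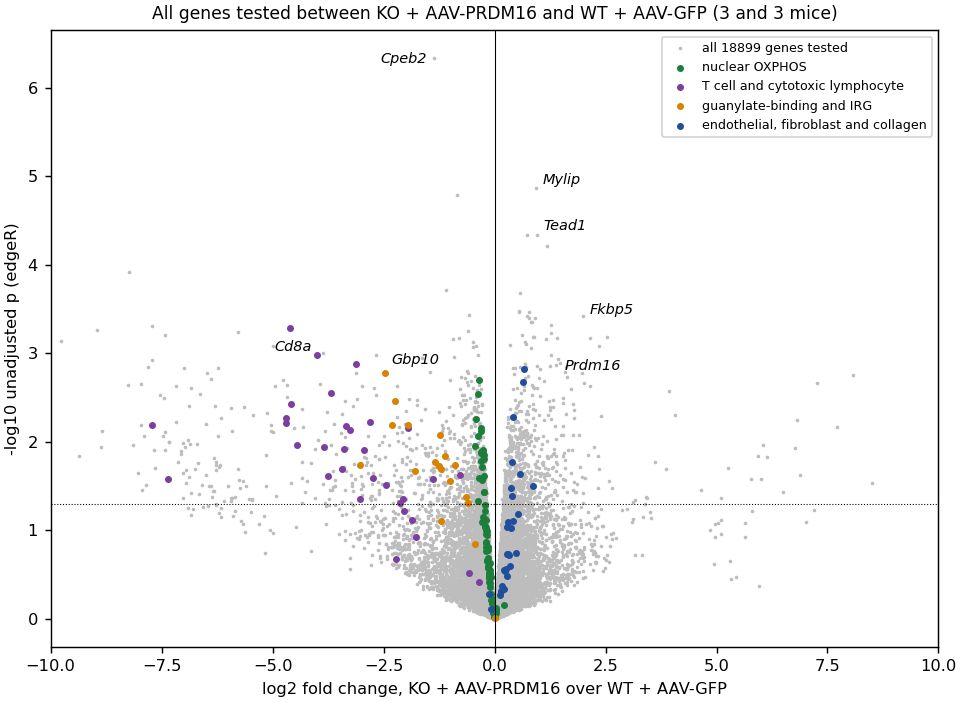
Log2 fold change of KO + AAV-PRDM16 minus WT + AAV-GFP (horizontal) against the negative log10 of the unadjusted p from edgeR (vertical), 1 point for each of the 18899 genes tested, with gene groups in colour and a dotted line at a p of 0.05. Cpeb2 stands highest on the left at a log2FC of -1.37, T cell and cytotoxic genes spread to the left, and Mylip, Tead1 and Prdm16 lie on the right.

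The largest difference was in lymphocyte and interferon-gamma-inducible genes, which were lower in KO-PRDM16. Of the 114 genes lower at the study's thresholds, 19 were immunoglobulin segments, 4 were T-cell receptor segments and 17 were members of the immune gene lists. Another 59 were other protein-coding genes and 15 were of other types. The share of each kind among all genes tested is not given, so these counts have no background beside them. Of the 56 higher genes, 1 was such a member (*Cd163*). In 33 of the 114 lower genes every library of a group was at 0, and 36 of the 114 had a mean of at least 1 CPM. In bulk tissue, fewer cells of a type and less RNA per cell cannot be told apart, here and for every cell type named below.

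*Cd8a*, a chain of the cytotoxic T cell co-receptor, had 0.188, 3.53 and 1.97 CPM in WT-GFP and 0.0496, 0.185 and 0.117 CPM in KO-PRDM16 (log2FC -4.00, SE 0.94, FDR = 0.39 by edgeR's test). *Cd3e*, a subunit of the T cell receptor complex, had 0.457, 3.46 and 1.77 CPM and then 0.119, 0.342 and 0.184 CPM (log2FC -3.12, SE 0.75). For both genes the groups did not overlap, but WT mouse 56 lay close to the KO libraries. Of the 20 T cell genes, all 20 were lower and 17 passed an unadjusted p of 0.05 against 4.42% of all genes, with a median log2FC of -3.00 against -0.016 over all genes. In 9 of the 20 the groups did not overlap, against 7.09% of all genes lower without overlap. Their summed level was 6.87, 45.6 and 26.8 CPM in WT-GFP and 6.44, 6.22 and 7.97 CPM in KO-PRDM16, and here mouse 56 lay inside the KO range. All of these levels are low, so the T cell difference was one of small counts.

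The cytotoxic lymphocyte genes moved alike, with 9 of 12 lower at an unadjusted p of 0.05 and a median log2FC of -3.40. In 3 of the 12 the groups did not overlap. *Nkg7*, a granule protein of these cells, had 0.197, 2.18 and 1.36 CPM in WT-GFP and 0.109, 0 and 0.167 CPM in KO-PRDM16. *Prf1*, the pore-forming perforin, had 0.0717, 0.963 and 0.343 CPM and then 0, 0.0370 and 0.1002 CPM, so for *Prf1* the groups overlapped at mouse 56. *Gzmk* was at 0 in all 3 KO-PRDM16 libraries and was at least 22.2-fold lower, taking 3 counts over the group as the limit of a count of 0. Among B cell genes, 3 of 12 were lower at an unadjusted p of 0.05. They included *Igkc*, the kappa light chain, at 6.91, 44.7 and 51.7 CPM against 5.64, 4.01 and 6.35 CPM, and *Ighm*, the IgM heavy chain, at 17.2, 35.2 and 40.1 against 5.41, 8.36 and 6.53 CPM. The B cell list as a whole was mixed, with 8 genes lower and 4 higher in sign and a median log2FC of -0.32. Without overlap, 3 were lower and 2 higher, against 7.09% and 6.15% of all genes. With libraries left out in turn the median ranged from -0.489 to 0.033. The macrophage list did not share the shift of the T cell and cytotoxic lists. Its median log2FC was -0.08 and 0 of 17 genes were lower at an unadjusted p of 0.05. Its haemoglobin scavenger receptor gene *Cd163* was higher, with 2.77, 5.54 and 3.62 CPM in WT-GFP and 6.34, 9.81 and 7.75 CPM in KO-PRDM16 (log2FC 1.0, SE 0.25, unadjusted p = 0.0019, FDR = 0.39 by edgeR's test).

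The guanylate-binding proteins and immunity-related GTPases are induced by interferon gamma and act against intracellular pathogens. Of the 18 genes, 15 were lower at an unadjusted p of 0.05 and 17 were lower in sign, with a median log2FC of -1.23. In 5 of the 18 the groups did not overlap, against 7.09% of all genes lower without overlap. *Gbp10* had 5.72, 44.0 and 17.1 CPM in WT-GFP and 3.03, 3.69 and 5.45 CPM in KO-PRDM16 (log2FC -2.47, SE 0.61). *Iigp1* had 11.4, 90.1 and 32.4 CPM and then 8.50, 9.18 and 10.7 CPM (log2FC -2.24, SE 0.62). WT mouse 65 was highest and WT mouse 56 lowest within WT-GFP for both genes, while the KO-PRDM16 mice lay close together. The summed level of the 18 genes was 174, 608 and 334 CPM in WT-GFP and 153, 153 and 184 CPM in KO-PRDM16, and mouse 56 again fell inside the KO range. Without mouse 65 of WT-GFP, 3 of the 18 genes and 10 of the 20 T cell genes passed an unadjusted p of 0.05, with medians of -0.68 and -2.25, and without KO mouse 59 the counts were 5 and 12. The share of all genes passing in these reduced fits is not given. Several of these genes are close paralogs, and counts of single members are uncertain.

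The promoters of this family are shown because they share a sequence that the gene list did not use. The interferon-stimulated response element (ISRE), searched as GAAA, any 2 bases and GAAA again on both strands from 250 bases before to 50 after each gene's start in RefSeq (GRCm38.p6), was found in 9 of the 11 promoters of the 10 genes that matched (81.8%). It was found in 1131 of all 32851 promoters (3.44%) and in 2 of 71 promoters of nuclear respiratory chain genes (2.82%). A match of letters is a description of the window, and binding was not measured. Windows of 30 bases follow, written on the gene's own strand with a match in capitals. TTTC, any 2 bases and TTTC is the same element read on the opposite strand. The windows of *Gbp3* and *Irgm1* each hold a further match that overlaps the capitals and runs into the lower case.
Gbp2 (chr3:142620594-142620623, plus strand): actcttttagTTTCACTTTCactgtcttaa
Gbp7 (chr3:142530273-142530302, plus strand): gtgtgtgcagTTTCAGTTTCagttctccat
Gbp3 (chr3:142559989-142560018, plus strand): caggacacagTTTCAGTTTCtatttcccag
Irgm1 (chr11:48871431-48871460, minus strand): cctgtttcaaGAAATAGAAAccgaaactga
Igtp (chr11:58199512-58199541, plus strand): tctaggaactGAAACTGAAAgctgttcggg
Irgm2 (chr11:58214903-58214932, plus strand): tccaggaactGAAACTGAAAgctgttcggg

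Of the genes with these windows, *Gbp2* had 21.2, 68.5 and 49.97 CPM in WT-GFP and 17.97, 20.3 and 26.3 CPM in KO-PRDM16 (log2FC -1.12, SE 0.39). *Igtp*, whose window differs little from that of its neighbour *Irgm2*, had 6.19, 52.3 and 22.8 CPM and then 5.42, 6.84 and 8.79 CPM (log2FC -1.95, SE 0.60). In both genes WT mouse 56 overlapped the KO-PRDM16 libraries. *Irf1*, a transcription factor that binds such elements, was lower without overlap, with 28.6, 24.0 and 27.9 CPM in WT-GFP and 19.2, 18.8 and 16.1 CPM in KO-PRDM16 (log2FC -0.57, SE 0.12, unadjusted p = 0.00037, FDR = 0.35 by edgeR's test). Unlike the effector genes, *Irf1* was as high in mouse 56 as in the other WT-GFP mice. It was 15.5, 15.3 and 14.9 CPM in WT-PRDM16 and 21.96, 22.2 and 27.7 CPM in KO-GFP. *Cxcl9*, a chemokine that attracts T cells, had 16.4, 48.0 and 33.2 CPM in WT-GFP and 11.2, 12.2 and 12.5 CPM in KO-PRDM16 (log2FC -1.45, SE 0.36).

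Genes of antigen presentation were partly lower. In the MHC class I list 4 of 15 genes were lower at an unadjusted p of 0.05, with a median of -0.47, and these were the peptide transporter genes *Tap1* and *Tap2* and the immunoproteasome genes *Psmb8* and *Psmb9*. *Tap1* had 12.96, 21.5 and 21.3 CPM in WT-GFP and 8.40, 11.2 and 8.34 CPM in KO-PRDM16 (log2FC -0.997, SE 0.26). In the MHC class II list 3 of 10 genes passed, with a median of -0.89, and its most abundant member *Cd74*, the invariant chain, had 44.6, 123 and 115 CPM against 59.3, 46.8 and 57.6 CPM (log2FC -0.79, SE 0.41, unadjusted p = 0.079 by edgeR's test). The wider list of 34 interferon-stimulated genes, most of them known as targets of type I interferon, had a median of -0.01, and *Mx1* and *Zbp1* alone of the 34 were lower at an unadjusted p of 0.05. The T cell, cytotoxic lymphocyte and guanylate-binding lists thus had far lower medians than this list, a contrast that was not tested. Outside the lists, *Gimap3*, *Ms4a4b*, *Rac2*, *Ifi209* and *Fgl2*, all genes of immune cells, were lower at the study's thresholds with log2FC of -3.13, -2.71, -1.76, -1.92 and -1.26. *Ifi208* and *Mcemp1* were at 0 in every KO-PRDM16 library and were at least 31.8-fold and 22.3-fold lower than the WT-GFP mean.

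**Figure D2:**
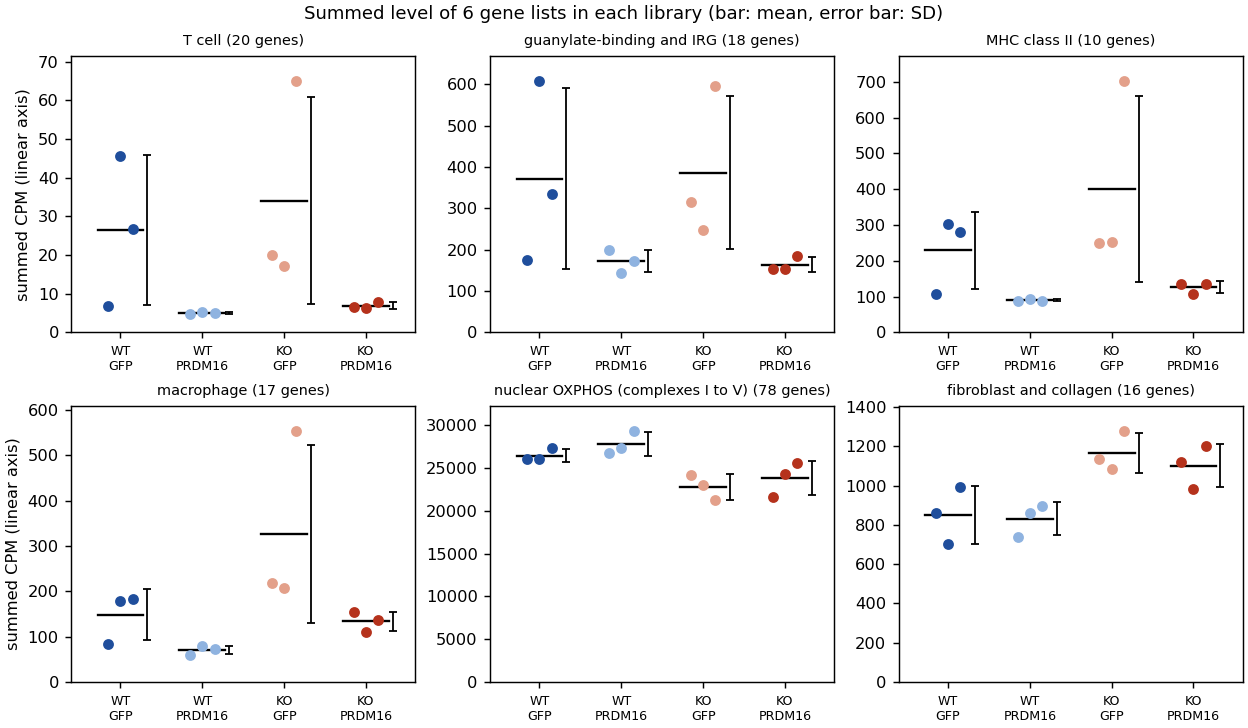
Summed CPM of 6 gene lists (vertical axes) in each library, by group of the AAV cohort (horizontal), 1 point per mouse with a line at the group mean and an error bar of 1 SD (n = 3). The T cell and guanylate-binding sums spread widely in both GFP groups and are low in all 6 mice given PRDM16, while the nuclear OXPHOS sum of every KO + AAV-PRDM16 mouse lies below every WT + AAV-GFP mouse.

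Nuclear genes of the respiratory chain were slightly lower in KO-PRDM16, and most of them in the same direction. Of the 78 subunit genes of complexes I to V, 73 were lower in sign and 22 were lower at an unadjusted p of 0.05, against 4.42% of all genes, while 0 were higher. In 30 of the 78 all KO-PRDM16 libraries lay below all WT-GFP libraries, against 7.09% of all genes. By edgeR's test 0 of the 78 passed an FDR of 0.05, and by DESeq2 1 was lower, *Atp5g3* of complex V (53.5, 52.8 and 51.3 CPM in WT-GFP and 41.0, 45.6 and 37.7 CPM in KO-PRDM16). The median log2FC was -0.17. Their summed level was 26030, 26030 and 27310 CPM in WT-GFP and 21670, 24340 and 25540 CPM in KO-PRDM16. It was 24180, 22970 and 21220 CPM in KO-GFP and 26740, 27350 and 29360 CPM in WT-PRDM16. The 3 KO-PRDM16 mice lay below every WT mouse of either virus, and overlapped KO-GFP.

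By complex, 10 of 36 genes of complex I (NADH dehydrogenase), 0 of 4 of complex II, 4 of 9 of complex III, 3 of 14 of complex IV (cytochrome c oxidase) and 5 of 15 of complex V (ATP synthase) were lower at an unadjusted p of 0.05. The medians lay between -0.14 for complex V and -0.21 for complex III. *Uqcrq* of complex III had 226, 241 and 235 CPM in WT-GFP and 170, 208 and 148 CPM in KO-PRDM16 (log2FC -0.42, SE 0.12, unadjusted p = 0.0055 by edgeR's test). *Atp5e* of complex V had 45.5, 49.6 and 50.4 CPM and then 37.1, 41.4 and 39.9 CPM (log2FC -0.30, SE 0.10). Among the more abundant subunits *Cox4i1* had 635, 657 and 719 CPM and then 547, 558 and 691 CPM (log2FC -0.16, SE 0.11), and *Ndufa4* also overlapped between the groups (log2FC -0.03, SE 0.11). The 13 protein-coding genes of the mitochondrial genome had a median of 0.07, with 0 lower and 0 higher at an unadjusted p of 0.05.

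Other mitochondrial groups had medians slightly below 0. Of 78 mitochondrial ribosome genes, 13 were lower at an unadjusted p of 0.05 (median -0.10), of 42 assembly factors 6 (median -0.12), of 26 import genes 2 (median -0.14) and of 17 citric acid cycle genes 2 (median -0.12). Of 19 genes of fatty acid oxidation, 17 were lower in sign and 5 at an unadjusted p of 0.05 (median -0.21). These were *Slc25a20*, the carnitine-acylcarnitine carrier, and the enzyme genes *Acadvl*, *Acads*, *Eci1* and *Decr1*. *Decr1* had 463, 482 and 495 CPM in WT-GFP and 382, 405 and 385 CPM in KO-PRDM16 (log2FC -0.30, SE 0.10).

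The medians of these groups depended on the processing and on single libraries. The 78 genes had a median transcript length of 1088 bases against 2874 over all genes tested, and a median GC content of 50.18% against 49.35%. After the trends in GC content and length had been taken out of every library, the median was -0.03, 45 of the 78 were lower in sign and 3 passed an unadjusted p of 0.05. The parts of GC content and of length in this were not separated. The same step brought the median to -0.009 for the mitochondrial ribosome, -0.010 for assembly factors, -0.044 for import, -0.066 for the citric acid cycle and -0.145 for fatty acid oxidation. With libraries scaled to totals without mitochondrial genes, 8 of the 78 passed, and without KO-PRDM16 mouse 59, 8 passed. The share of all genes passing in these altered settings is not given, so the counts cannot be set against a background. Without WT-GFP mouse 65 the medians of the mitochondrial ribosome, assembly factors and import were -0.061, -0.059 and -0.064, and without KO-PRDM16 mouse 59 those of complexes IV and V, the mitochondrial ribosome and fatty acid oxidation were -0.096, -0.076, -0.059 and -0.137. Without KO-PRDM16 mouse 76 those of complexes IV and V and the mitochondrial ribosome were -0.236, -0.219 and -0.162.

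The 10 genes that differed at an FDR of 0.05 between KO-GFP and WT-GFP give a set of CPEB2-KO differences to follow. This set was chosen as extreme between these KO-GFP and WT-GFP libraries, so where KO-PRDM16 lies against either is a description and no support. Among them are *Ndufa1* and *Uqcr11* of the respiratory chain, *Romo1* and *Timm13* of the inner membrane and intermembrane space, *Mrps24* and *Mrps36*, the copper chaperone *Atox1*, the microtubule protein *Map1b*, the pseudogene *Gm13340* and *Cpeb2* itself. *Ndufa1* had 54.9, 65.3 and 63.8 CPM in WT-GFP, 35.3, 36.3 and 32.9 CPM in KO-GFP and 49.4, 52.6 and 40.6 CPM in KO-PRDM16. *Romo1* had 22.9, 26.8 and 22.4 CPM, then 13.7, 14.6 and 14.8 CPM, then 17.7, 16.9 and 17.1 CPM. In both genes KO-PRDM16 lay between the other groups and overlapped neither.

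All 10 genes were without overlap between KO-PRDM16 and WT-GFP. For the 7 mitochondrial and copper genes the log2FC against WT-GFP lay between -0.48 and -0.37 in KO-PRDM16 and between -0.82 and -0.65 in KO-GFP. With GC content and length trends removed, the values in KO-PRDM16 lay between -0.30 for *Timm13* and -0.154 for *Atox1*. *Map1b* had 6.65, 4.97 and 5.42 CPM in WT-GFP, 11.6, 12.6 and 12.3 CPM in KO-GFP and 10.6, 7.52 and 11.2 CPM in KO-PRDM16. *Gm13340* had 146, 150 and 137 CPM in WT-GFP and 73.8, 78.1 and 87.1 CPM in KO-PRDM16, but it was also low in WT-PRDM16 (82.4, 70.5 and 99.8 CPM). In the direct comparison of KO-PRDM16 with KO-GFP, 0 of 18899 genes passed an FDR of 0.05 by edgeR's test, with 247 higher and 964 lower at an unadjusted p of 0.05.

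**Figure D3:**
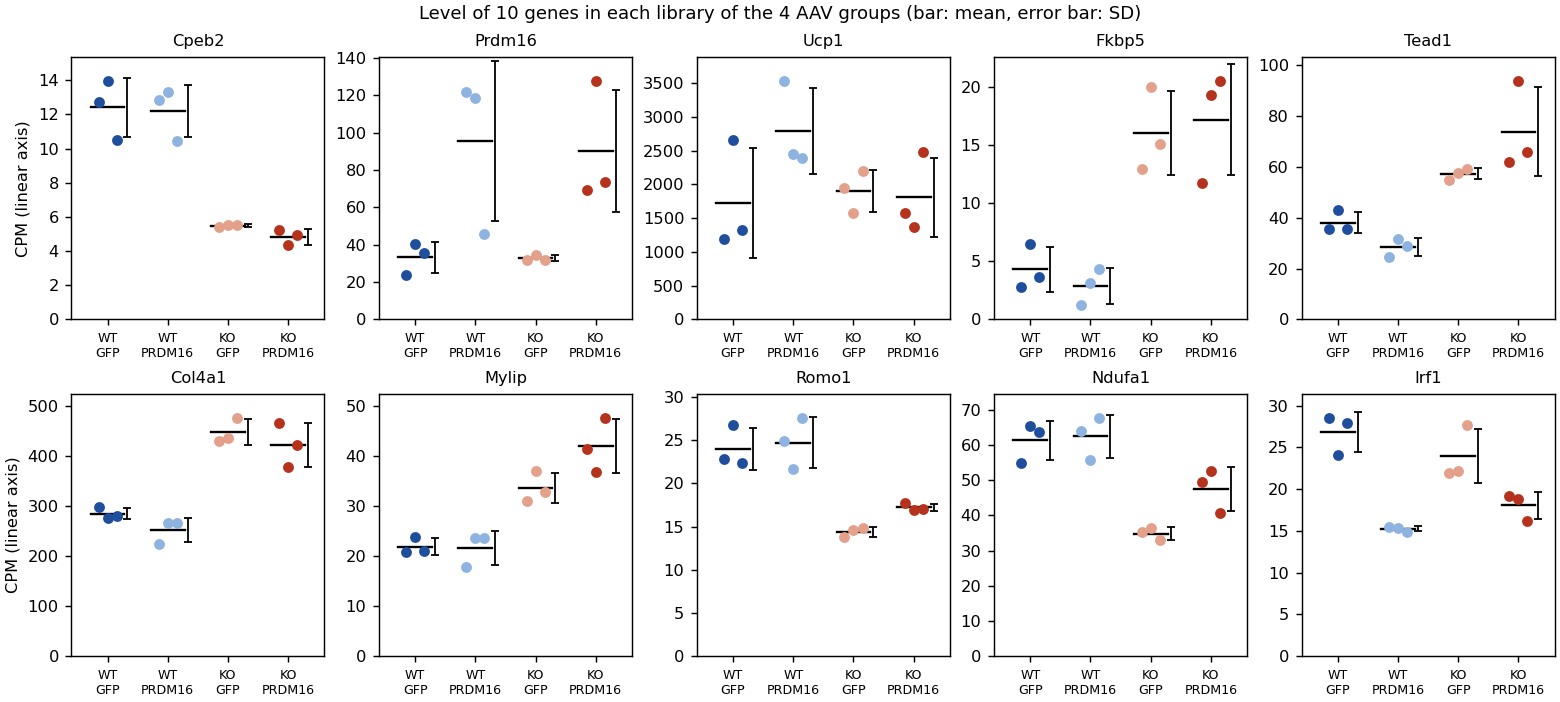
CPM of 10 genes (vertical axes) in each library of the 4 AAV groups (horizontal), 1 point per mouse with a line at the group mean and an error bar of 1 SD (n = 3). Cpeb2 is near 5 CPM in all 6 KO mice, Prdm16 is high in mice given PRDM16, and Ndufa1 and Romo1 of KO + AAV-PRDM16 lie above KO + AAV-GFP and below WT + AAV-GFP.

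*Ucp1* and the regulators of thermogenesis showed no detectable difference with 3 mice in each group. *Ucp1* had 1184, 2658 and 1320 CPM in WT-GFP and 1574, 1373 and 2477 CPM in KO-PRDM16 (log2FC 0.07, SE 0.31, unadjusted p = 0.82 by edgeR's test). The mice of each group spread over nearly the same range. *Dio2*, which makes active thyroid hormone, ranged from 12.1 to 213 CPM in WT-GFP alone. *Ppargc1a*, the coactivator of mitochondrial biogenesis, had a log2FC of -0.03 (SE 0.26), and *Pparg*, the regulator of adipocyte differentiation, 0.17 (SE 0.19). *Srebf1*, a regulator of lipid synthesis, had -0.22 (SE 0.17), *Lipe*, hormone-sensitive lipase, -0.12 (SE 0.11), and *Mecom*, which encodes a relative of PRDM16, 0.04 (SE 0.15). None of these 5 passed an unadjusted p of 0.05.

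Some other brown fat genes were lower. Of 19 thermogenic genes, 14 were lower in sign and 5 at an unadjusted p of 0.05, with a median of -0.29. This median was -0.118 with GC content and length trends removed, -0.152 with limma-voom, -0.13 without WT-GFP mouse 65, and -0.155 and -0.111 without KO-PRDM16 mouse 59 or 65. *Cidea*, a lipid droplet protein, had 1263, 1453 and 1575 CPM in WT-GFP and 1123, 1282 and 1109 CPM in KO-PRDM16 (log2FC -0.29, SE 0.12), with WT mouse 56 inside the KO range. *Cox7a1*, a cytochrome c oxidase subunit of muscle and brown fat, had 75.9, 83.2 and 71.9 CPM and then 55.8, 57.6 and 56.9 CPM (log2FC -0.44, SE 0.15). It was the 1 gene of the 19 whose groups did not overlap, against 7.09% of all genes lower without overlap. By this measure the list did not stand out from all genes. *Kcnk3*, *Cox8b* and *Slc27a2* had log2FC of -0.44, -0.36 and -0.71. The β-adrenergic receptor gene *Adrb1* was lower without overlap, at 27.6, 29.3 and 38.5 CPM against 20.5, 20.2 and 24.2 CPM (log2FC -0.56, SE 0.15, unadjusted p = 0.0032, FDR = 0.42 by edgeR's test), and *Adrb3* had a log2FC of -0.29 (SE 0.17, unadjusted p = 0.11). Among the partners of PRDM16, *Cebpb* (log2FC -0.69, SE 0.27) and *Ebf2* (log2FC -0.26, SE 0.10) were lower at an unadjusted p of 0.05 and without an FDR under 0.5. Their list of 15 genes, *Prdm16* included, lay near 0, with a median of -0.07. In it 10 genes were lower and 5 higher in sign, and 3 were lower and 1 higher at an unadjusted p of 0.05.

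White fat genes leaned the other way. Of 14 genes, 5 were higher and 1 lower at an unadjusted p of 0.05, with a median of 0.29. This median was 0.121 without KO-PRDM16 mouse 76 and 0.643 without mouse 65. *Lep*, the gene of the hormone leptin, had 34.9, 21.3 and 30.0 CPM in WT-GFP and 82.4, 45.4 and 242 CPM in KO-PRDM16 (log2FC 2.10, SE 0.73, unadjusted p = 0.014 by edgeR's test). It was also high in KO-GFP, at 78.1, 78.4 and 128 CPM. *Mest*, a marker of expanding fat cells, had 1.24, 0.217 and 0.883 CPM and then 1.82, 1.40 and 3.27 CPM (log2FC 1.47, SE 0.57). In both genes the groups did not overlap, and KO mouse 76 was the highest.

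**Figure D4:**
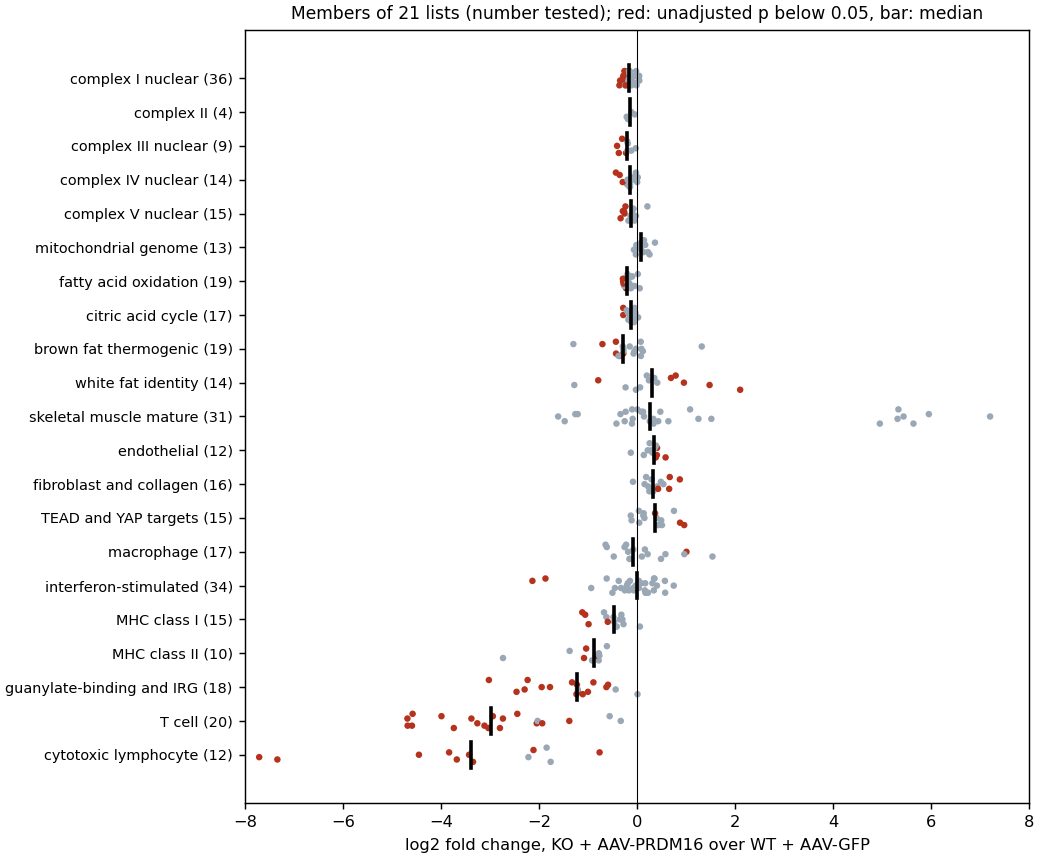
Log2 fold change of the tested members of 21 gene lists, KO + AAV-PRDM16 minus WT + AAV-GFP (horizontal), 1 point per gene, red at an unadjusted p under 0.05, with a bar at the list median; the 7 muscle and 2 cytotoxic genes at 0 in every library of a group have no fixed position. The T cell, cytotoxic and guanylate-binding lists lie furthest to the left, and the endothelial, fibroblast and TEAD lists lie above 0. The medians of the nuclear respiratory chain, fatty acid oxidation and citric acid cycle lists lie slightly below 0, and that of the mitochondrial genome slightly above.

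Among the genes higher in KO-PRDM16, *Mylip*, a ubiquitin ligase that directs the LDL receptor to degradation, had the smallest p. It had 20.8, 23.8 and 21.0 CPM in WT-GFP and 41.5, 36.9 and 47.8 CPM in KO-PRDM16, a 1.92-fold difference without overlap (log2FC 0.94, SE 0.14, unadjusted p = 1.4e-05, FDR = 0.10 by edgeR's test). *Tead1*, the DNA-binding partner of the Hippo pathway coactivators YAP and TAZ, had 35.6, 43.0 and 35.7 CPM and then 61.9, 93.9 and 65.9 CPM (log2FC 0.95, SE 0.16, FDR = 0.18). On average both lay in between in KO-GFP, at 31.0 to 37.0 CPM for *Mylip* and 54.9 to 59.4 CPM for *Tead1*, and in WT-PRDM16 *Tead1* had 24.6 to 31.5 CPM. Of 15 tested genes of the TEAD and YAP list, 13 were higher in sign and 3 at an unadjusted p of 0.05, *Tead1*, *Tead2* and *Wwtr1*, which encodes TAZ (median 0.36). The median was 0.181 without WT-GFP mouse 65, and 0.239 and 0.224 without KO-PRDM16 mouse 59 or 76.

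*Col4a1*, a collagen of basement membranes, had 298, 277 and 281 CPM in WT-GFP and 466, 378 and 422 CPM in KO-PRDM16 (log2FC 0.56, SE 0.11, FDR = 0.35 by edgeR's test). *Col8a1*, a collagen of vessel walls, had 3.58, 3.24 and 4.05 CPM and then 8.77, 6.50 and 9.57 CPM (log2FC 1.19, SE 0.20, FDR = 0.20). Of 16 fibroblast and collagen genes, 15 were higher in sign and 4 at an unadjusted p of 0.05, *Fn1*, *Fbn1*, *Dpt* and *Sparc*, against 3.5% of all genes (median 0.31). The median was 0.194 without WT-GFP mouse 65 and 0.521 without mouse 89. Of 12 endothelial genes 11 were higher in sign and 4 at an unadjusted p of 0.05, *Pecam1*, *Cdh5*, *Tek* and *Vwf* (median 0.33). The endothelial sum was 701, 563 and 593 CPM in WT-GFP and 798, 641 and 778 CPM in KO-PRDM16, so the groups overlapped. *Ly6c1*, found on endothelial cells, was higher without overlap (log2FC 0.73, SE 0.12, FDR = 0.18), as was the interferon gamma receptor gene *Ifngr1*, at 44.2, 57.2 and 55.1 CPM against 78.5, 84.8 and 98.2 CPM (log2FC 0.74, SE 0.15).

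*Fkbp5*, a chaperone of the glucocorticoid receptor that glucocorticoids induce, was 3.99-fold higher. It had 2.78, 6.47 and 3.65 CPM in WT-GFP and 11.7, 19.3 and 20.6 CPM in KO-PRDM16 (log2FC 2.00, SE 0.41, unadjusted p = 0.00038, FDR = 0.35 by edgeR's test). The level in KO-GFP, 12.98, 20.1 and 15.2 CPM, was much the same, and in WT-PRDM16 it was 1.26, 3.12 and 4.30 CPM. Other genes higher at the study's thresholds included *Col28a1*, a collagen of peripheral nerve (0.959, 0.319 and 1.07 CPM against 3.22, 2.87 and 4.29 CPM, log2FC 2.15), the calcium store protein gene *Casq2* (log2FC 1.48), the secreted hormone gene *Stc1* (log2FC 1.58) and *Hey2*, a Notch target (log2FC 1.39). *Col28a1* was likewise high in KO-GFP, at 3.38 to 4.51 CPM. *Rps12* (log2FC 2.14) and its near-identical copy *Rps12l1* (log2FC -1.10) went in opposite directions, and the split of their counts is uncertain.

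No mature skeletal muscle gene passed an unadjusted p of 0.05. Of 40 genes, 31 passed the filter, 0 were called higher and 0 lower by edgeR's test, and the median log2FC was 0.25 with 7 genes at 0 in every library of a group. DESeq2 called 1 of the 31 higher at an FDR of 0.05, *Trdn*, a protein of the calcium release complex, which was at 0 in every WT-GFP library and had 0.109, 0 and 0.0668 CPM in KO-PRDM16. Without KO-PRDM16 mouse 59 the median was 0.0. The sum was 83.5, 90.1 and 98.4 CPM in WT-GFP and 83.2, 87.5 and 86.5 CPM in KO-PRDM16. *Acta1*, skeletal muscle actin, had 0.0717, 0.122 and 0.358 CPM and then 0.307, 0.176 and 0 CPM. *Myh1*, a fast myosin heavy chain, was at 0 in 5 of the 6 libraries and had 0.139 CPM in KO mouse 59. *Myl1*, a myosin light chain, had 32.8, 32.9 and 36.3 CPM and then 32.1, 37.1 and 38.5 CPM (log2FC 0.08, SE 0.12). The KO-GFP sum was 241 CPM in mouse 57 and 77.7 and 71.1 CPM in mice 64 and 69, so 1 mouse of that group held the high sum. By gene, 28 of the 31 were higher and 3 lower in KO-GFP than in WT-GFP. Their median log2FC was 2.07, with 12 higher and 0 lower at an unadjusted p of 0.05. In KO-PRDM16 against KO-GFP, 27 were lower and 4 higher (median -2.28), with 6 lower and 0 higher at that p. Whether these differences rested on mouse 57 was not tested.

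The other 6 mice of the AAV cohort, with the viruses exchanged between the genotypes, share no library with this comparison. In them KO-GFP was set against WT-PRDM16, each set of 6 libraries fitted alone. That comparison called 1334 genes lower (7.06%) and 2037 higher (10.8%) at an unadjusted p of 0.05. Of 705 genes higher in KO-PRDM16 when its own 6 libraries were fitted alone, 592 (83.97%) were higher in sign in the other mice, against 52.57% of all genes, and 260 passed there, which is 36.88% of the first list and 12.76% of the second. Of the 798 genes lower, 399 were lower in sign in the other mice, against 47.43% of all genes. Of these 798, 186 passed in the same direction (23.31% of the first list and 13.94% of the second) and 277 in the opposite direction, against 10 of the 705 higher genes.

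By group, the lymphocyte and interferon-gamma genes lay among those that went the other way. In the other 6 mice the T cell list had a median of 3.45 with 19 of 20 genes higher at an unadjusted p of 0.05, and the guanylate-binding list a median of 1.29 with 16 of 18 higher. Both lists were low in all 6 mice given PRDM16. The T cell sum was 4.77, 5.24 and 5.05 CPM in WT-PRDM16 and 20.1, 17.2 and 64.99 CPM in KO-GFP. Nuclear respiratory chain genes kept their direction, with a median of -0.37 and 57 of 78 lower at an unadjusted p of 0.05. So did fatty acid oxidation (median -0.29, 10 of 19 lower), brown fat (-0.43, 8 of 19 lower), fibroblast (0.76, 13 of 16 higher), endothelial (0.32, 5 of 12 higher) and white fat genes (0.32, 5 of 14 higher). Trends in GC content and length were not taken out of this fit of the other 6 mice. Whether the respiratory chain median there would shrink after that step, as it did above, was not tested. In the 12 libraries together, 0 genes passed an FDR of 0.05 for the interaction of genotype and virus by edgeR's test, with 603 at an unadjusted p of 0.05.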

How the data were processed

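BAT RNA of each mouse was sequenced by the authors as a library made with the SureSelect XT HS2 mRNA kit, and the authors deposited the counts, the whole number of reads on each gene without normalization. The submitters' processing notes name bcl2fastq 2.20, Trimmomatic 0.36, HISAT2 and the build GRCm38.p6. The counting tool, the annotation release and the handling of strand and duplicate reads are not given in the sources used here, so overlapping, antisense and paralogous genes are uncertain, and so is the promoter that drives the vector. Groups were taken from the sample labels, and every column was mapped. Of the 55487 identifiers, 55227 matched the GRCm38 annotation. The 12 AAV libraries were fitted together in R 4.3.3 with edgeR 4.0.16 (filterByExpr, TMM scaling, quasi-likelihood test, two-sided, Benjamini-Hochberg adjustment over 18899 genes). The SE is the log2FC divided by the square root of F. The script was checked on simulated data. A count of 0 was taken to allow 3 counts over the group, which covers counting error only. Libraries of a group differed by a median chi-square per gene of at least 5.24, so none was present more than once. With 3 mice against 3 an exact permutation test cannot give a p under 0.1 and was not used. Mice of the 2 groups with the same replicate number in the labels did not deviate together, with correlations of 0.007, -0.049 and 0.056. Alternatives were DESeq2 1.42.0, limma-voom (limma 3.58.1), RLE scaling, other filters and FDR thresholds, scaling without mitochondrial genes, removal of GC and length trends by splines, only the 6 libraries compared, a replicate block, and each library left out.

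The members and lists were chosen with earlier results of these data known. Genes were named by a rule: 14 genes of the study's question, up to 12 higher and 12 lower protein-coding genes with the largest log2FC at the study's thresholds without overlap and with a mean of at least 1 CPM, the 20 with the smallest p, up to 6 members of each list with the highest mean, and every gene at an FDR of 0.05 between the GFP groups. Other list members were named after their values were seen.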

Additional observations from a re-analysis of the deposited data

How the results depend on the processing

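At an FDR of 0.05 DESeq2 called 83 genes lower and 74 higher, and 355 and 163 at the study's thresholds. It was the setting in which *Prdm16* passed (log2FC 1.45, adjusted p = 0.0040). The counts at the study's thresholds were 570 and 356 with limma-voom, 50 and 26 with no filter on low counts, 3 and 2 with scaling to totals without mitochondrial genes, and 1 and 1 at an FDR of 0.2, and 89 genes were higher after GC and length trends were removed. *Cpeb2* no longer passed an FDR of 0.05, leaving 0 lower genes, with only the 6 libraries compared (log2FC -1.36, adjusted p = 0.127) and with scaling to totals without mitochondrial genes (log2FC -1.32, adjusted p = 0.115), nor without KO-PRDM16 mouse 65 (adjusted p = 0.079) or mouse 76 (adjusted p = 0.082). The causes were not tested. With 1 library left out at a time, lower genes ranged from 0 to 2 and higher genes from 0 to 1 at an FDR of 0.05, and from 1 to 416 and from 0 to 169 at the study's thresholds, the log2FC of *Cpeb2* from -1.47 to -1.27 and that of *Prdm16* from 1.099 to 1.60. The lower count was over 1.5 times smaller without WT-GFP mouse 65 (7) or 89 (1), KO-PRDM16 mouse 59 (2) or 76 (2), KO-GFP mouse 64 (50) and WT-PRDM16 mouse 64 (56) or 80 (23). It was over 1.5 times larger without WT-GFP mouse 56 (416), KO-PRDM16 mouse 65 (259) and KO-GFP mouse 57 (226) or 69 (301). The replicate number as a block gave 104 lower and 59 higher genes at the study's thresholds, and 1 and 0 at an FDR of 0.05, and changed none of these calls. Of 1236 values of 59 other named genes under the alternatives, 1181 kept their direction and their side of an FDR of 0.05. The sign changed in 6 genes, none called by edgeR's test: *Acta1* to 0.009 with GC and length trends removed and 0.011 with limma-voom, and *Ppargc1a* to 0.022 with limma-voom and 0.012 with scaling to totals without mitochondrial genes. With libraries left out the log2FC ranged from -1.50 to 1.70 for *Dio2*, -0.224 to 0.529 for *Ucp1*, -0.124 to 0.325 for *Pparg*, -0.237 to 0.39 for *Ppargc1a*, -0.877 to 0.791 for *Acta1* and -0.074 to 0.122 for *Mecom*. *Myh1* gave no value without KO-PRDM16 mouse 59, as the other 5 libraries held 0 counts. Of 924 list medians 891 moved by less than 1 SD between mice, and 32, of 13 lists, changed sign.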

Other observations

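A list of 19 genes that respond to glucocorticoids was added after the level of *Fkbp5* had been seen, so it supports nothing. Of the 19, 16 were higher in sign in KO-PRDM16 than in WT-GFP, and 5 were higher and 1 lower at an unadjusted p of 0.05 (median 0.35, and 0.197 without KO-PRDM16 mouse 76 or 0.608 without WT-GFP mouse 65). *Zbtb16*, a transcription factor, had 18.3, 59.9 and 8.66 CPM in WT-GFP and 90.5, 87.5 and 83.9 CPM in KO-PRDM16 (log2FC 1.59, SE 0.57). *Cdkn1a*, the cell cycle inhibitor p21, had 21.6, 42.7 and 14.6 CPM and then 45.1, 49.97 and 86.1 CPM (log2FC 1.20, SE 0.35). *Hif3a*, a hypoxia-inducible factor, was 5.08-fold higher at a low level, with 0.0896, 0.129 and 0.183 CPM against 0.426, 0.611 and 1.04 CPM. *Sult1a1*, a sulfotransferase, was also higher (log2FC 0.69, SE 0.17), and *Pdk4*, which restrains pyruvate oxidation, was lower (log2FC -0.38, SE 0.17). For *Zbtb16* the KO-PRDM16 mice lay close together while the WT-GFP mice spread, and *Zbtb16*, *Cdkn1a* and *Hif3a* did not overlap between the groups. In the other 6 mice, KO-GFP against WT-PRDM16, 7 of the 19 were higher and 1 lower at an unadjusted p of 0.05 (median 0.48).

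Several further lists showed little. Of 20 proliferation genes 0 passed an unadjusted p of 0.05 in either direction (median 0.15), and of 16 regulators of mitochondrial biogenesis 0 passed (median -0.11). Of 13 smooth muscle and pericyte genes 0 passed (median 0.26). Of 17 genes of fat synthesis 15 were lower in sign and 1 at an unadjusted p of 0.05 (median -0.23, and 0.048 without KO-PRDM16 mouse 76). The cytosolic ribosome list of 79 tested genes had 2 higher and 4 lower at an unadjusted p of 0.05 (median -0.07).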
